A study of Mus musculus with 8 samples.

Results

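Dysferlin (Dysf) and 8 genes of muscle membrane repair were followed in the white quadriceps of mice that lack the thioesterase Acot2 in muscle. The members were Dysf, Myof, Cav3, Capn3, Trim72, Anxa1, Anxa2, Anxa5 and Anxa6, found by gene name in the deposited table. All 9 were present among its 54091 genes, and all 9 were among the 13638 genes tested, those that reached 10 normalized reads in 4 or more libraries of the 8. Dysf was selected on the same contrast that is described here, because its p-value was among the smallest of the genes that did not pass. Its difference between the groups is therefore a description and not a test. Its 8 partners were chosen for their role, and the question was whether Dysf moved with them.

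The study compared 4 Acot2 mKO mice, in which a CKM Cre removed Acot2 in muscle, with 4 control mice of the genotype Loxp/Loxp, for which no Cre is named. The Ckm promoter is active in skeletal muscle fibres and heart, and Cre is not driven by it in the other cells of a muscle piece. All mice were males of 11 to 14 weeks on a chow diet, and RNA-seq was done on bulk RNA from 1 piece of white quadriceps per animal. Each library carries its own animal number, so the spread between replicates is a spread between animals.

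A muscle fibre whose surface membrane tears is resealed within seconds to minutes, in a process that depends on calcium. Calcium entering through the tear is sensed by C2-domain proteins such as dysferlin and by annexins, which gather at the lesion, while Trim72 (also called MG53) brings vesicles to it and caveolin-3 holds dysferlin at the surface membrane. Loss of dysferlin causes a limb-girdle muscular dystrophy and Miyoshi myopathy in humans. Calpain-3, caveolin-3 and myoferlin are tied to the same process, and mutations of human CAPN3 and CAV3 also cause muscle disease.

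Recovered totals per library ran from 30415429 reads in Acot2 mKO replicate 2 to 48834283 in Acot2 mKO replicate 4. Normalized reads below are the deposited log2 values with the log undone and the added 1 taken off, so that they are reads divided by 1 factor per library. Acot2 itself averaged 47.3 ± 5.03 normalized reads in Acot2 mKO and 213 ± 45.9 in control muscle (SD, n = 4 each), a log2 fold change of -2.13 (SE 0.18) for which limma gave an adjusted p = 0.000962. Exact permutation of the group labels (two-sided, 70 arrangements) gave p = 0.0286, which is the minimum possible. Of the Acot2 exon stretches of 50 bases, 24.55% are shared with Acot1, and reads in those stretches cannot be told apart. Of all genes tested, 2 passed an adjusted p under 0.05 (0.0147%), Acot2 and the kelch protein gene Kbtbd12. Markers of fast glycolytic fibres, the fibres of white muscle, summed to 4708000 to 5712000 normalized reads in Acot2 mKO and 4982000 to 5963000 in control libraries. Slow fibre markers were high in Acot2 mKO replicates 3 and 4 (6979 and 17980 normalized reads in sum, against 1642 to 2566 in the other 6 libraries). Control replicates 2 and 3 had high adipocyte markers (14380 and 6124, against 379 to 1654 in the other 6).

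Coordinates of all members are those of GENCODE M21 on GRCm38, where each is a protein-coding gene. Dysf lies at chr6:84008590-84211060 on the plus strand and has 16 annotated transcripts. The RefSeq table of promoter windows (GRCm38.p6) gives it 2 start sites. The 250 bases before each start are shown for Dysf and, as a comparison, for the muscle genes Cav3 and Trim72. Capitals mark the E-box CANNTG, which reads the same on both strands and is the motif bound by MyoD and related muscle factors. The motif was searched after the values were known.
Dysf start 1, chr6:84008348-84008597, plus strand: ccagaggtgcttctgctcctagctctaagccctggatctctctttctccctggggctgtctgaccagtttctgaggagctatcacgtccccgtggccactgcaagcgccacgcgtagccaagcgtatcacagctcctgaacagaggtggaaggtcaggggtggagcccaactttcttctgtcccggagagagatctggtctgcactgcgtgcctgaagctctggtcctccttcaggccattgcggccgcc
Dysf start 2, chr6:84019136-84019385, plus strand: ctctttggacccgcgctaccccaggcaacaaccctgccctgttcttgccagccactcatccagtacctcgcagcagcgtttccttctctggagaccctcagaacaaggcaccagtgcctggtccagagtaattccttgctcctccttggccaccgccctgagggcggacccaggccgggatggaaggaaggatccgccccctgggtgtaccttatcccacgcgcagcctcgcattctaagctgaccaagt
Cav3, chr6:112459255-112459504, plus strand: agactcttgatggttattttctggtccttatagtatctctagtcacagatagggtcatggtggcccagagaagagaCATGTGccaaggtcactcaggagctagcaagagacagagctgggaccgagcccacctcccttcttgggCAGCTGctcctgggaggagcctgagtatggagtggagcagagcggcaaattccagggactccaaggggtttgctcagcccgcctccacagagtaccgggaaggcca
Trim72, chr7:128004128-128004377, plus strand: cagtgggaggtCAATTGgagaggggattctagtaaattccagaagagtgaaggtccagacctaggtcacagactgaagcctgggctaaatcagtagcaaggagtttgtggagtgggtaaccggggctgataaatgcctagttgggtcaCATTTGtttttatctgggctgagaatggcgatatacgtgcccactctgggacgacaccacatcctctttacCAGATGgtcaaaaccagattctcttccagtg
Neither Dysf window held an E-box, the Cav3 window held 2 and the Trim72 window 3. Of 32851 windows of the same length in the table, 66.2% held at least 1 and 12.2% held at least 3. In all, 8 of the 9 members had a window in the table (10 windows, since Dysf and Capn3 have 2 each), and 5 of the 10 held no E-box. Windows of Anxa1, Anxa2 and Myof held none, Anxa5 held 1 and each Capn3 window held 1. A CArG box was found in no member's window (1.47% of all windows) and a MEF2 box in the first Capn3 window (2.92% of all windows), both searched on both strands. These are matches of letters in a window and were not tied to binding data.

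Dysf was higher in all 4 Acot2 mKO libraries than in any control library. It had 4009, 4269, 3672 and 3668 normalized reads across the Acot2 mKO replicates 1 to 4, against 3072, 3315, 2476 and 3170 in control replicates 1 to 4. The lowest Acot2 mKO library thus lay above the highest control library, and control replicate 3 was the lowest of all. The means were 3905 ± 291 in Acot2 mKO and 3008 ± 369 in control muscle (SD, n = 4 each), a ratio of 1.30 and a log2 fold change of 0.38 (SE 0.09). Over all genes tested, 126 did not overlap between the groups in that direction (0.924%), and nothing is read from Dysf being among them, since the contrast chose it. Its limma adjusted p over all genes was 0.9995. The difference lay between 0.29 and 0.47 on the log2 scale in every alternative run, the lowest without control replicate 3 and the highest without Acot2 mKO replicates 3 and 4.

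Myof (chr19:37899036-38043577, minus strand), the ferlin closest to dysferlin, acts in myoblast fusion and membrane trafficking and is also made by endothelium. It had 395, 342, 376 and 460 normalized reads across the Acot2 mKO replicates 1 to 4, against 480, 363, 397 and 359 in control replicates. The groups overlapped. Their log2 fold change of -0.02 had an SE of 0.12 and a 95% confidence interval of -0.28 to 0.24. Per kb of exon sequence, Dysf exceeded Myof 15.4, 18.9, 14.8 and 12.1 times in Acot2 mKO libraries and 9.68, 13.8, 9.42 and 13.3 times in control libraries. The size of this ratio depends on the exon lengths merged over all annotated transcripts, 8.33 kb for Dysf and 12.6 kb for Myof. That ratio of levels overlapped between the groups, through Acot2 mKO replicate 4 and control replicates 2 and 4. Of the other ferlins, Otof and Fer1l4 were at 0 in all libraries, Fer1l5 was below the filter, and Fer1l6 was the single one tested, with 182 ± 58.6 normalized reads in Acot2 mKO and 158 ± 61.5 in control muscle (SD, n = 4 each).

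Among the partners at the fibre surface, Cav3 (chr6:112459505-112472872, plus strand) encodes the muscle form of caveolin and binds dysferlin. Cav3 had 1189, 1248, 1411 and 1181 normalized reads across the Acot2 mKO replicates 1 to 4, against 1328, 1172, 1287 and 1240 in control replicates. Both groups averaged 1257 normalized reads, with an SD of 107 in Acot2 mKO and 66.8 in control muscle, and the log2 fold change was -0.0012 (SE 0.074, interval -0.16 to 0.16). Trim72 (chr7:128003949-128011033, plus strand), the muscle ubiquitin ligase that tethers vesicles at the lesion, had 4866, 4178, 5128 and 4389 normalized reads across the Acot2 mKO replicates and 4286, 4674, 4480 and 4689 in control replicates. The control values of Trim72 lay within the span of the Acot2 mKO values, and the log2 fold change was 0.03 (SE 0.07, interval -0.13 to 0.19). Of the Trim72 exon stretches of 50 bases, 23.8% are shared with Gm15533 on the opposite strand, which had 0 to 2 reads in each library.

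Capn3 (chr2:120456019-120504913, plus strand) encodes calpain-3, the muscle calpain that binds titin and cleaves proteins when calcium rises. It had 4821, 5185, 5269 and 4770 normalized reads across the Acot2 mKO replicates 1 to 4, against 5419, 4923, 4930 and 4908 in control replicates. Control replicate 1 was the highest of the 8, and the other 3 controls, at 4908 to 4930, lay inside the Acot2 mKO span. The log2 fold change was -0.0098 (SE 0.059, interval -0.14 to 0.12). Ganc, a gene on the same strand, shares 6.32% of the Capn3 stretches and had a log2 fold change of -0.084.

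**Figure D1:**
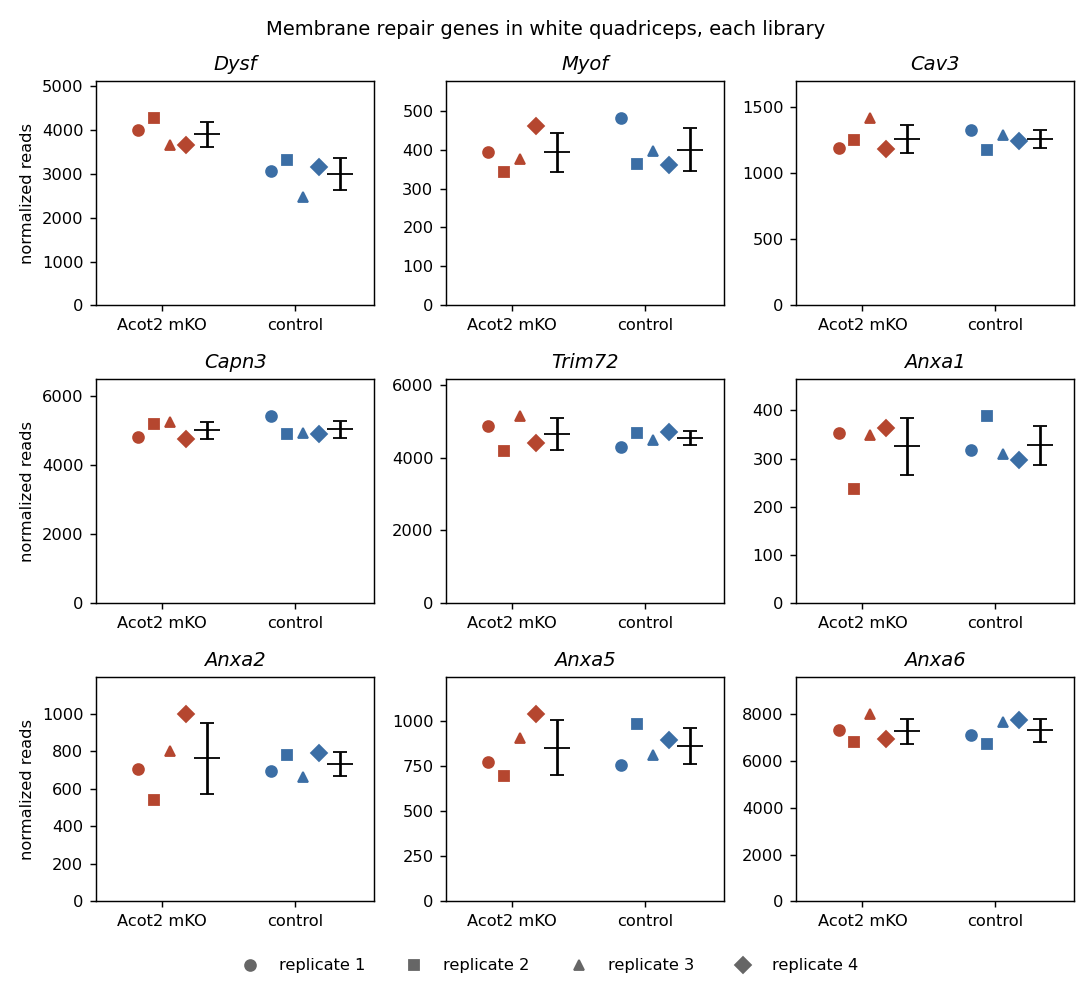
Normalized reads of the 9 members in each of 4 Acot2 mKO and 4 control libraries, on linear axes that start at 0, with the marker shape giving the replicate number and black bars the mean ± SD. The Acot2 mKO values of Dysf (3668 to 4269) lie above its control values (2476 to 3315), and the other 8 members overlap.

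The annexins, which bind membrane lipid when calcium is present and cap the wound, gave 4 more members. Anxa6 (chr11:54979108-55033445, minus strand), the highest of the 4 per kb, had 7341, 6790, 7993 and 6950 normalized reads across the Acot2 mKO replicates 1 to 4, against 7092, 6734, 7688 and 7737 in control replicates. The groups overlapped over nearly their whole span, with a log2 fold change of -0.0092 (SE 0.07, interval -0.16 to 0.15).

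Anxa1 (chr19:20373428-20390944, minus strand), an annexin that is also abundant in leukocytes, had 353, 237, 349 and 363 normalized reads across the Acot2 mKO replicates, against 317, 387, 309 and 297 in control replicates. The low value of Acot2 mKO replicate 2 stood below all other libraries. The log2 fold change was -0.02 (SE 0.14, interval -0.34 to 0.30), and without that library it was 0.12. Anxa2 (chr9:69453620-69491795, plus strand), which pairs with the S100a10 protein at membranes, had 709, 539, 805 and 998 normalized reads across the Acot2 mKO replicates, against 695, 780, 664 and 791 in control replicates. The Acot2 mKO values of Anxa2 spanned 1.85-fold and held both the lowest and the highest of the 8. The log2 fold change was 0.03 (SE 0.15, interval -0.31 to 0.37), and it was -0.24 without Acot2 mKO replicates 3 and 4. Anxa5 (chr3:36448923-36475894, minus strand), which binds exposed phosphatidylserine, had 773, 694, 907 and 1039 normalized reads across the Acot2 mKO replicates, against 757, 985, 813 and 897 in control replicates. Its lowest and highest libraries were again Acot2 mKO replicates 2 and 4, and the log2 fold change was -0.03 (SE 0.13, interval -0.30 to 0.25).

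The libraries at those ends also stood apart in fibroblast and macrophage markers. Fibroblast markers summed to 54870 normalized reads in Acot2 mKO replicate 2 and 99730 in Acot2 mKO replicate 4, against 58800 to 85100 in control libraries, and all 8 markers of the list were tested, with 6 above 0 and 2 below. Macrophage markers summed to 1088 in Acot2 mKO replicate 2 and 2485 in Acot2 mKO replicate 4, against 1582 to 2239 in control libraries, with 7 of 8 markers tested, 1 above 0 and 6 below. Endothelium, smooth muscle and pericyte, and Schwann cell markers did not share the low end. Acot2 mKO replicates 2 and 4 had 7424 and 8638 for endothelium, 18040 and 18820 for smooth muscle and pericyte, and 621 and 975 for Schwann cell. The control libraries had 7175 to 8211, 15700 to 18760 and 565 to 932. In each of these lists Acot2 mKO replicate 1 was lowest, at 6087, 13340 and 467. No fibroblast or macrophage marker was at 0 in all libraries, and their part in the annexin values was not tested. In bulk RNA, more cells of a type and more RNA per cell cannot be told apart. Of the slow fibre markers 7 of 8 had a log2 fold change above 0, and the 2 Acot2 mKO libraries in which they were high, replicates 3 and 4, were also the Acot2 mKO libraries with the lower Dysf values. Oxidative fast fibre markers, all 4 tested, with 3 above 0 and 1 below and none at 0, stood apart in libraries of both groups. Their sums in normalized reads were 61820 and 65880 for the Acot2 mKO replicates 3 and 4 and 88880 and 63460 for the control replicates 3 and 4, against 8505 and 11940 in Acot2 mKO replicates 1 and 2 and 12620 and 2783 in control replicates 1 and 2. The 3 libraries in which Dysf lay below its group mean, Acot2 mKO replicates 3 and 4 and control replicate 3, were among the 4 with high sums. Since Dysf did not overlap between the groups, any split of the libraries keeps Acot2 mKO above control, and nothing is read from such a split. The part of fibre type in the Dysf values was not tested. Of the adipocyte markers 7 of 7 lay below 0, with sums of 379 to 1121 in Acot2 mKO and 505 to 14380 in control libraries. Without Acot2 mKO replicates 3 and 4 the Dysf log2 fold change was 0.47, and without control replicates 2 and 3 it was 0.32. Of the tendon markers 6 of 6 lay above 0, with sums of 8491 to 15030 in Acot2 mKO and 6086 to 9971 in control libraries, and their part in the Dysf difference was not tested. Satellite cell and regenerating fibre markers summed to 871 to 1103 in Acot2 mKO and 893 to 1178 in control libraries. Neutrophil markers summed to 2.53 to 9.14 in Acot2 mKO and 1.08 to 14.1 in control libraries, with Ly6g at 0 in all libraries.

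Of the 8 partners of Dysf, 2 had a log2 fold change above 0 and 6 below, from -0.03 to 0.03, with a median of -0.0095. Over all 13638 genes 7050 lay above 0 and 6588 below, with a median of 0.0049. None of the 8 had groups that did not overlap (1.92% of all genes did, in either direction), and none had an unadjusted limma p under 0.05 (2.91% of all genes did), the smallest being 0.683. The adjusted p was 0.9995 for each of the 8, and none passed. The 95% confidence intervals of the 8 reached from -0.34 to 0.37, which limits the differences that these libraries could have shown but does not show that the levels were alike.

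**Figure D2:**
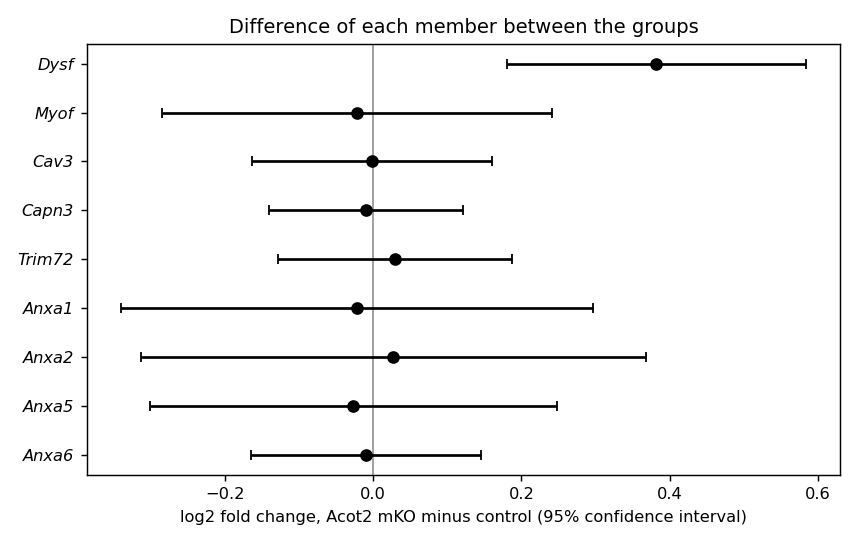
Log2 fold change of each member, Acot2 mKO minus control, with 95% confidence intervals from limma on 4 libraries per group. Dysf, which was chosen by this contrast, is at 0.38, and the 8 partners lie between -0.03 and 0.03 with intervals that include 0.

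Levels were compared between members per kb of exon sequence, in normalized reads. The exon lengths were merged over all annotated transcripts and can exceed those of the transcripts in use, so the order of close members depends on the annotation. The order was the same in both groups. Anxa6 was highest, at 2481 ± 183 in Acot2 mKO and 2496 ± 165 in control muscle (SD, n = 4 each), followed by Trim72 at 2081 ± 195 in Acot2 mKO and 2033 ± 85.1 in control muscle. Cav3, at 1084 ± 92.2 in Acot2 mKO and 1083 ± 57.6 in control muscle, came next, before Capn3, at 998 ± 50.2 in Acot2 mKO and 1005 ± 49.7 in control muscle. The libraries of Cav3 and Capn3 overlapped in both groups. Anxa5, at 479 ± 85.3 in Acot2 mKO and 485 ± 55.9 in control muscle, stood above Dysf, at 469 ± 34.9 in Acot2 mKO and 361 ± 44.3 in control muscle. These neighbours overlapped in Acot2 mKO muscle, at 390 to 584 for Anxa5 and 440 to 512 for Dysf, and did not overlap in control muscle, at 426 to 553 for Anxa5 and 297 to 398 for Dysf. Anxa2 had 205 ± 51.3 in Acot2 mKO and 196 ± 16.8 in control muscle, and Anxa1 112 ± 20.3 in Acot2 mKO and 112.5 ± 13.98 in control muscle. Myof was lowest, at 31.2 ± 3.95 in Acot2 mKO and 31.7 ± 4.45 in control muscle. All other neighbours in this order had libraries that did not overlap in either group.

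Whether Dysf moves with its partners can also be asked among libraries of the same group. The size of the Dysf spread within groups entered the p-value that chose it, so these relations are not independent of that choice. Each group's mean was taken off the log2 values, and the deviations of Dysf were set against those of each gene over the 8 libraries. Dysf deviated by 0.04, 0.13, -0.09 and -0.09 in Acot2 mKO replicates 1 to 4 and by 0.04, 0.15, -0.27 and 0.08 in control replicates 1 to 4. It was thus spread most by control replicate 3. Pearson's r with Dysf was below 0 for 7 partners and above 0 for 1. It was -0.55 for Anxa6 (exact two-sided permutation within groups, p = 0.177, Spearman's rho -0.50, p = 0.267), -0.37 for Cav3 (exact permutation p = 0.349, rho -0.43, p = 0.335) and -0.36 for Myof (exact permutation p = 0.425, rho -0.62, p = 0.144). The relations of the other 5 were closer to 0, at 0.13 for Capn3 (exact permutation p = 0.778), -0.11 for Trim72 (p = 0.769), -0.15 for Anxa1 (p = 0.766), -0.21 for Anxa2 (p = 0.556) and -0.14 for Anxa5 (p = 0.708). Their Spearman's rho values were 0, -0.05, -0.02, -0.12 and -0.19 in the same order, with exact permutation p = 1.0, 0.943, 0.977, 0.79 and 0.674.

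No relation of a partner with Dysf passed. Adjusted over the 13637 relations of Dysf with all other genes, the permutation p-values of the 8 partners ran from 0.625 to 0.944. Of those 13637 genes 10.6% had an unadjusted permutation p under 0.05 and 0% an adjusted one, the lowest adjusted p being 0.376. Over all genes r with Dysf had a median of -0.03, and 95% of genes lay between -0.81 and 0.84, a span that held all 8 partners. The libraries farthest from the median Dysf deviation were control replicate 3 and Acot2 mKO replicate 4. Without them r was below 0 for all 8 partners over the 6 libraries left, from -0.81 for Cav3 and Anxa6 to -0.33 for Anxa5. The relation of Capn3 thus changed sign and rests on those libraries. Over the 8 libraries with the group means kept, r of the partners with Dysf ran from -0.36 for Anxa6 to 0.07 for Trim72, with an adjusted permutation p of 1.0 for each.

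**Figure D3:**
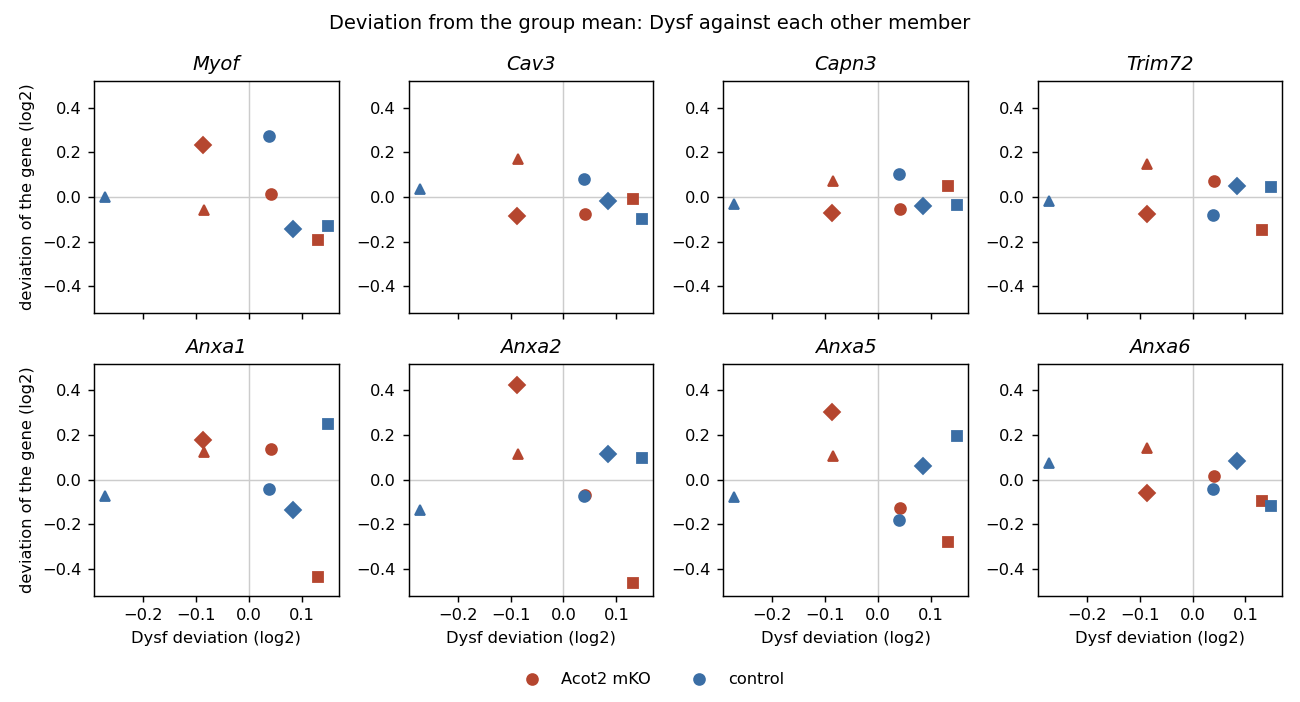
Deviation of each library from its group mean on the log2 scale, with Dysf on the x axis and 1 of the 8 partners on the y axis of each panel, for 4 Acot2 mKO and 4 control libraries. Pearson's r runs from -0.55 for Anxa6 to 0.13 for Capn3, and the point at the far left of each panel is control replicate 3, where Dysf deviated by -0.27.

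Among the 28 pairs that the 8 partners form with one another, the highest r values were found between annexins and between Cav3 and Capn3. Anxa2 and Anxa5 had r = 0.92 (exact permutation p = 0.0139, rho 0.83, p = 0.0382), and r stayed at 0.86 without the 2 libraries farthest in Anxa2, Acot2 mKO replicates 2 and 4. Anxa2 had an unadjusted permutation p under 0.05 with 5.54% of all genes, and the adjusted p of this pair was 0.862. Anxa1 had r = 0.76 with Anxa2 (exact permutation p = 0.0833, rho 0.50, p = 0.255), which was 0.03 without Acot2 mKO replicate 2 and control replicate 2 and so rests on them. Cav3 and Capn3 had r = 0.79 (exact permutation p = 0.0295, rho 0.81, p = 0.0365) and 0.55 without Acot2 mKO replicate 3 and control replicate 1. Cav3 had an unadjusted permutation p under 0.05 with 11.8% of all genes, and the adjusted p of this pair was 0.393. Anxa1 and Anxa5 had r = 0.73 (exact permutation p = 0.092, rho 0.69, p = 0.0903). That r was -0.13 without Acot2 mKO replicate 2 and control replicate 2, and 0.54 without Acot2 mKO replicates 2 and 4. Trim72 and Anxa6 had r = 0.66 (exact permutation p = 0.102, rho 0.64, p = 0.128). That r was 0.26 without Acot2 mKO replicates 2 and 3, the farthest in Trim72. It was 0.895 without Acot2 mKO replicate 3 and control replicate 2, the farthest in Anxa6. None of these pairs passed the adjustment over all genes, which the smallest possible permutation p of 0.00174 left nearly out of reach for a single pair.

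**Figure D4:**
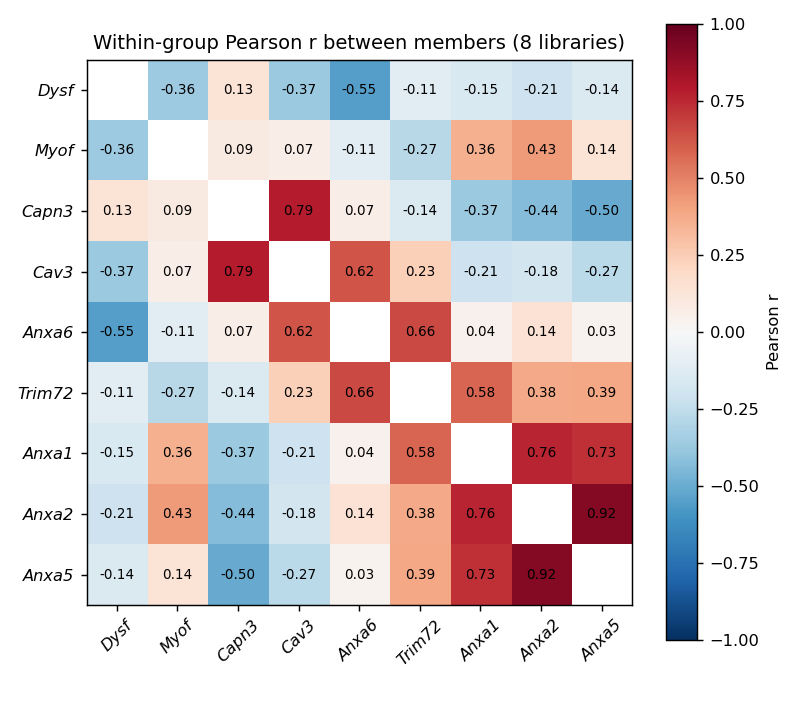
Within-group Pearson r between the members over 8 libraries, with red for values above 0 and blue for values below. The closest pairs are Anxa2 with Anxa5 (0.92) and Capn3 with Cav3 (0.79), and the row of Dysf runs from -0.55 with Anxa6 to 0.13 with Capn3.

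The genes whose deviations were most like those of Dysf over the 8 libraries were not among its repair partners. The highest within-group r belonged to Slc7a2, a transporter of cationic amino acids (0.99), Sncaip, which encodes synphilin-1 (0.98), Fchsd2 (0.98), the small nucleolar RNA gene Snord17 (0.98) and Fam57a (0.97). At the other end were Nup54, a nucleoporin (-0.98), Cflar, an inhibitor of caspase-8 activation (-0.96), and Mtcl1 (-0.96). Each of these had an adjusted permutation p of 0.376, so none passed. The smallest possible permutation p of 0.00174 left passing nearly out of reach, and nothing is read from this. With the group means kept, r was 0.04 for Slc7a2, -0.26 for Sncaip, 0.14 for Fchsd2, 0.11 for Snord17 and 0.83 for Fam57a. Between the groups, where Dysf was higher in Acot2 mKO muscle, the first 4 had log2 fold changes from -0.76 for Snord17 to -0.13 for Fchsd2, and Fam57a had 0.36, beside 0.38 for Dysf. Fam57a had few reads, with a mean of 34.5 normalized reads in Acot2 mKO and 27.0 in control muscle. Sncaip, at 57.2 in Acot2 mKO and 85.0 in control muscle, was low as well.

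The genes most like each partner by the same measure were Tnip2, Atp8b1 and Dab2 for Myof (r from 0.95 to 0.99), Gpn1, Dnajc8 and Gfm2 for Cav3 (0.98 to 0.99), and Asb11, Irx3 and Dnajc21 for Capn3 (0.97 to 0.99). For Trim72 they were Mcat, Rpl23a and Nhlrc2 (0.95 to 0.96), and for Anxa6 Lamp1, Snrpd2 and Eef1g (0.97 to 0.98). Anxa1 was most like Rgs19 and Ncf1 (0.99 for both). Ncf1 encodes a subunit of the phagocyte oxidase. Both had few reads, with means of 31.6 normalized reads in Acot2 mKO and 43.0 in control muscle for Rgs19, and 31.5 and 29.9 for Ncf1. Anxa2 was most like Trim2, Cd34 and Pamr1 (0.98), of which Cd34 is made by endothelium and fibroblast-like progenitors. Anxa5 was most like Emc8, Porcn and Efhd1 (0.97 to 0.99). None of the genes named here was another member. No relation of these genes had an adjusted permutation p under 0.05, which the smallest possible permutation p left nearly out of reach.

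Other genes of membrane repair were examined as 7 lists of 85 genes in the table, of which 78 were tested. Of these 46 had a log2 fold change above 0 and 32 below, none had an adjusted p under 0.05, and none an unadjusted limma p under 0.05, against 2.91% of all genes. That count was 3 without Acot2 mKO replicate 4, and 1 without Acot2 mKO replicate 1, Acot2 mKO replicate 2 or control replicate 1. The vesicle fusion list, with the SNARE proteins that join vesicles to the membrane, had 12 of 15 genes above 0 with a median of 0.04. The ESCRT list, whose proteins pinch off damaged membrane, had 11 of 17 above 0 with a median of 0.03. In the list of dysferlin-binding and other repair proteins 10 of 15 were above 0, with a median of 0.03. Caveolae genes had 4 of 12 above 0, with a median of -0.01, and calpains and calpastatin 4 of 9, with a median of -0.02. Other annexins and their S100 partners had 4 of 9 above 0, with a median of -0.03. These medians lay from -0.03 to 0.04, beside 0.0049 over all genes, of which 51.7% lay above 0. The list of other ferlins had 1 gene tested, Fer1l6, at 0.23.

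In each list the tested genes with the smallest p were named. Chmp2a, a subunit of the ESCRT filament, had 1061, 1102, 1138 and 1075 normalized reads across the Acot2 mKO replicates 1 to 4, against 1053, 896, 1031 and 999 in control replicates. Its lowest Acot2 mKO library lay just above its highest control library, as for 0.924% of all genes. The log2 fold change was 0.14 (SE 0.07). Pdcd6ip, the ESCRT adaptor ALIX, averaged 1430 ± 66.8 in Acot2 mKO and 1560 ± 142 in control muscle (SD, n = 4 each), with overlap. Stx2, a syntaxin, averaged 218 ± 34.4 in Acot2 mKO and 249 ± 10.9 in control muscle, and Lamp2, a lysosomal membrane protein gene, 2800 ± 109 in Acot2 mKO and 2660 ± 131 in control muscle. Syntaxins and lysosomal proteins take part in vesicle fusion at the lesion. Among caveolae genes Ehd2, an ATPase at the neck of caveolae, averaged 1290 ± 204 in Acot2 mKO and 1440 ± 216 in control muscle, and Ehd1 110 ± 13.3 in Acot2 mKO and 121 ± 9.16 in control muscle. The groups overlapped for both genes. Parvb, a parvin that binds dysferlin, averaged 677 ± 105 in Acot2 mKO and 744 ± 73.4 in control muscle, and the kinesin heavy chain gene Kif5b 9000 ± 380 in Acot2 mKO and 8590 ± 118 in control muscle. Anxa3 averaged 249 ± 70.7 in Acot2 mKO and 289 ± 32.1 in control muscle, and Anxa8, at few reads, 33.8 ± 15.1 in Acot2 mKO and 22.1 ± 16.2 in control muscle. These pairs of values overlapped between the groups as well. The calpain gene Capn15 averaged 94.6 ± 5.48 in Acot2 mKO and 85.1 ± 8.30 in control muscle, and Capn7 2660 ± 187 in Acot2 mKO and 2540 ± 135 in control muscle. Of these 13 genes, Fer1l6 included, Chmp2a was the one whose groups did not overlap.

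**Figure D5:**
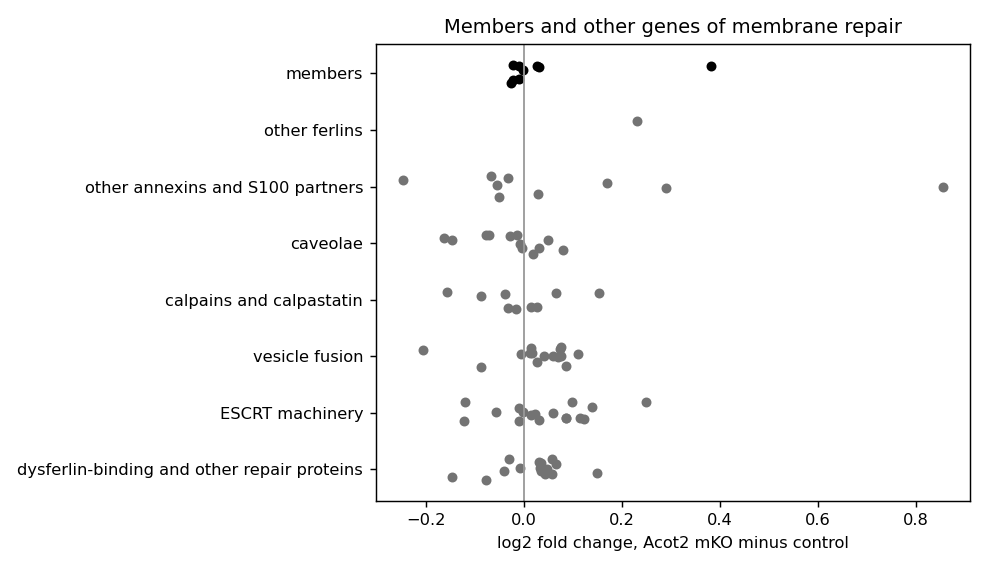
Log2 fold change, Acot2 mKO minus control, of the 9 members (black) and of the 78 other tested repair genes (grey) by list, with points spread vertically for legibility. Dysf is the black point at 0.38, and the grey point at 0.86 is Anxa8, a gene with few reads.

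Dysf shares its chromosome with Kbtbd12, which lies 4.33 Mb away and averaged 5200 ± 365 normalized reads in Acot2 mKO and 1752 ± 59.1 in control muscle (SD, n = 4 each). Of the 27 tested genes within 1 Mb of Dysf, 12 had a log2 fold change above 0 and 15 below, with a median of -0.0048, and none had groups that did not overlap, against 1.92% of all genes. Among the 27, 2 had an unadjusted limma p under 0.05 (7.41%, against 2.91% of all genes), and none passed the adjustment. Of the 50 tested genes between Dysf and Kbtbd12, 29 lay above 0 and 21 below, with a median of 0.02. In 2 of these the Acot2 mKO libraries were all higher than the control libraries, and in 3 all lower, which makes 10.0% against 1.92% of all genes. An unadjusted limma p under 0.05 was found for 5 of the 50 (10.0%, against 2.91% of all genes), and none passed the adjustment. Cav3 lies on the same chromosome, 23.82 Mb from Kbtbd12, and did not differ beyond its spread. Reads of Dysf overlap few other genes: 3.12% of its stretches are shared, most with Gm15475 on the opposite strand, which had 0 reads in every library.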

How the data were processed

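Stranded libraries were prepared from white quadriceps RNA of 8 mice, per the labels. The submitters' processing notes name GRCm38 as the build and STAR, HTSeq, cutadapt, FastQC and DESeq2 as tools, without role or version. The authors deposited log2 values. Each is the log2 of a gene's reads, scaled by 1 factor per library, plus 1, as the values themselves show: with the log undone, 100% of values below 1000 reads lay within 0.1 of whole multiples of 1 read's worth, which ran from 0.708 to 1.223. Names of 27 genes that a spreadsheet had made into dates were restored by gene number.

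The log2 values of 13638 genes (10 or more normalized reads in 4 or more libraries) were fitted with limma 3.58.1 (R 4.3.3), with variances moderated by a trend on expression. P-values were adjusted by the Benjamini-Hochberg method at 0.05, and all p-values rest on the spread between these 8 animals. The log2 scale with its pseudocount of 1 understates changes of low genes. Relations within groups used exact two-sided permutation within groups (576 arrangements), adjusted over all genes. Relations with the group means kept used all arrangements of the 8 libraries, adjusted in the same way. The scripts were tested on simulated data. Per-kb levels used the merged exon length of GENCODE M21, and motifs the RefSeq promoter table.

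The members, lists and alternatives were chosen with earlier results of these data known. The genes named are the members, Acot2 and Kbtbd12, the 2 genes with the smallest p in each list, and the genes with the highest (for Dysf also the lowest) r with each member, leaving out predicted genes; 1 gene that the rule names for Anxa1 is not reported here. The Dysf difference was used to choose it and is given as a description. Alternatives were the pseudocount, the filter, the scaling (trimmed mean of M values or quantiles), library weights, limma-voom on recovered reads, blocking by neighbouring animal numbers, and the omission of libraries. No protein sequences were used here.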

Additional observations from a re-analysis of the deposited data

Results flagged for a closer look

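Checked were the members, Acot2, Kbtbd12, the named genes of the repair lists and the sums of the repair and marker lists. Among their 86 groups of 4 libraries, 3 held a library far from the other 3, where chance flags about 1 in 20 groups. The gap of that library to its nearest neighbour, divided by the range of the group, was compared with Dixon's critical value at the 95% level. For Anxa1 it was 0.894 in the Acot2 mKO group, where replicate 2 had 237 normalized reads and the other 3 had 349 to 363. For Capn3 it was 0.956 in the control group, where replicate 1 had 5419 normalized reads and the other 3 had 4908 to 4930. For Kbtbd12 it was 0.884 in the control group, where replicate 2 had 1840 normalized reads and the other 3 had 1715 to 1730.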

How the results depend on the processing

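The number of genes called stayed at 1 higher and 1 lower in every setting, and no member passed in any. The Dysf difference was 0.29 to 0.47 on the log2 scale over 19 alternatives, with a limma adjusted p of at least 0.887. Its groups did not overlap, so leaving out libraries could not reverse its direction. The filter and the block left the estimate at 0.382. Nothing is therefore read from its direction being kept. The partners' differences, all near 0, changed sign in 29 of 152 values, so that their direction cannot be read. Trim72 was -0.0067 without Acot2 mKO replicates 3 and 4, Anxa2 -0.24 and Fer1l6 -0.17. Anxa1 was 0.066 and Anxa5 0.033 without control replicates 2 and 3. Anxa1 was 0.013 by limma-voom, and Anxa2 -0.022 with library weights. The count of repair list genes with an unadjusted p under 0.05, 0 as reported, was 1 with the block and without either pair of libraries left out together, and 0 to 3 with 1 replicate left out. Leaving out 1 replicate in turn, the differences ran from -0.10 to 0.069 for Myof, -0.058 to 0.028 for Cav3, -0.034 to 0.025 for Capn3, -0.020 to 0.079 for Trim72, -0.080 to 0.12 for Anxa1, -0.11 to 0.18 for Anxa2, -0.13 to 0.067 for Anxa5 and -0.056 to 0.023 for Anxa6.

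Relations with Dysf changed sign in 18 of 120 values for partners. Libraries of adjacent animal numbers had r from -0.08 to 0.19 between their deviations over all genes. Other pairs across the groups had -0.22 to 0.19. Of the 8 libraries, 4 were closest to the library of the adjacent number in the other group. Whether adjacent numbers pair the animals cannot be told from these values. With the means of adjacent animal numbers taken off as a block, r was 0.30 for Cav3, 0.757 for Trim72, 0.033 for Anxa1 and 0.093 for Anxa5. It was -0.073 for Anxa6, -0.754 for Myof, 0.60 for Capn3 and -0.31 for Anxa2. Thus 5 of 8 partners lay above 0 in place of 1. Each r with the block rests on the differences within 4 pairs of libraries, and no p-value was computed for it. The same count of 2 genes was called between the groups with the block. Without Acot2 mKO replicates 3 and 4 r was 0.036 for Trim72, 0.11 for Anxa1, 0.35 for Anxa2 and 0.42 for Anxa5. Pooled over the groups it was 0.074 for Trim72, -0.26 for Sncaip and 0.039 for Mtcl1, and by quantile normalization 0.0068 for Anxa5. Leaving out 1 replicate in turn, r ran from -0.087 to 0.31 for Capn3, -0.31 to 0.24 for Trim72, -0.52 to 0.42 for Anxa1, -0.78 to 0.21 for Anxa2 and -0.55 to 0.15 for Anxa5. The causes were not tested. The number of libraries limits these relations, and low genes such as Anxa8 carry a large counting error.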
